A study of Mus musculus with 3 samples.

Results

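The genes described here are 10 members of a set linked to matrix remodeling and angiogenesis in macrophages, namely *Vegfa*, *Fn1*, *Tgfbi*, *Thbs1*, *Vcan*, *Mmp12*, *Mmp14*, *Timp2*, *Plau* and *Plaur*. They were chosen by symbol among the 31053 genes of the count files, all 10 matched 1 row each, and each had at least 1 UMI (unique molecular identifier, 1 captured RNA molecule) in each of the 3 libraries. The libraries are droplet single-cell RNA-seq (scRNA-seq) of live brain cells from female wild-type C57BL/6 mice, bought at 6 to 8 weeks of age, that carried brain tumor-initiating cells from NPcis mice with *Nf1* and *Trp53* mutations. Tissue within a 2 mm section around the injection site was collected 4 weeks after implantation. Both niacin libraries (replicates 1 and 2) came from mice injected intraperitoneally with niacin at 100 mg/kg daily from day 7, and the vehicle library (replicate 2) from mice given saline on the same schedule. Each library is a pool of several mice from which myelin and dead cells were removed, so mice cannot be told apart and there is 1 vehicle sample.

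Glioblastoma draws monocytes from the blood, and these become macrophages beside the resident microglia. Such cells can lay down and cut extracellular matrix and can call in vessels. *Vegfa* is the main growth factor of endothelium. *Fn1* (fibronectin), *Tgfbi* (a TGF-β-induced adhesion protein), *Thbs1* (thrombospondin 1, an inhibitor of angiogenesis and activator of latent TGF-β) and *Vcan* (versican, a large proteoglycan) encode matrix proteins. *Mmp12* (macrophage elastase) and *Mmp14* (a membrane-anchored collagenase) encode metalloproteinases, *Timp2* an inhibitor of metalloproteinases that also takes part in the activation of pro-MMP2 by *Mmp14*, *Plau* the protease urokinase, which activates plasminogen, and *Plaur* its receptor on the cell surface.

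Of 6947 barcodes, 5528 passed a minimum of 200 genes and a limit of 20% on mitochondrial UMIs. Among 5571 distinct barcodes 924 occurred in more than 1 library. The deepest copy had a median of 15.7 times the UMIs of the next, and of 1124 lesser copies for which both had a class, 1123 carried the class of the deepest copy. For each shared barcode only a copy with at least 3 times the UMIs of every other was kept, and none where there was no such copy. This left 4270 cells, of which 1264 were in the vehicle library (median 3276 UMIs), 1412 in niacin replicate 1 (5133) and 1594 in niacin replicate 2 (5230.5). Cells took a class from summed UMIs of lineage markers, none of which is a member of the set, and names end in "-like". Monocyte/macrophage-like cells numbered 323 in the vehicle library (25.6% of its cells), 84 in niacin replicate 1 (5.95%) and 89 in niacin replicate 2 (5.58%), and microglia-like cells 416, 837 and 977 in the same order. With all barcodes kept, microglia-like cells numbered 471, 935 and 1230 and monocyte/macrophage-like cells 383, 229 and 241. The rule on shared barcodes thus removed a larger part of the monocyte/macrophage-like class in the niacin libraries than in the vehicle library. All 17 monocyte and macrophage markers had UMIs in the vehicle cells of that class and 15 and 17 of them in the niacin cells. Of the endothelial markers *Cldn5* and *Slco1a4* were at 0 in the vehicle cells of that class, whereas *Kdr*, another marker of that list, had UMIs there. All but 1 of the 6 mural and fibroblast markers were at 0 in these cells. No cell was classed as endothelial, mural, fibroblast or astrocyte, for which the exact binomial 95% interval of the vehicle library reached 0.291%. The members are therefore described in myeloid, lymphoid and choroid plexus cells only.

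Monocyte/macrophage-like cells were 25.6% of the cells of the vehicle library and held 2512467 of its 7013869 UMIs over all genes. In that library, 8 of the 10 members had most of their UMIs in these cells. The shares were 97.1% of 278 UMIs for *Vcan*, 95.2% of 2158 for *Fn1*, 94.7% of 5778 for *Tgfbi*, 88.7% of 1232 for *Thbs1*, 84.1% of 453 for *Vegfa*, 80.4% of 593 for *Plaur*, 77.0% of 1045 for *Mmp14* and 67.6% of 148 for *Mmp12*. The 2 exceptions were *Timp2*, with 75.5% of 1040 UMIs in microglia-like cells, and *Plau*, with 57.6% of 92. In both niacin libraries *Fn1* (95.5% and 96.8%) and *Vcan* (38 of 44 and 19 of 20 UMIs) again had most of their UMIs in monocyte/macrophage-like cells, although these were under 6% of the cells. In these libraries the class held 723645 of 8168236 and 803077 of 8919691 UMIs over all genes. The other members were spread over further classes there. Choroid plexus-like cells held 24 of the 64 and 22 of the 44 *Vegfa* UMIs, neutrophil-like cells 60.9% and 47.2% of *Thbs1* UMIs, and microglia-like cells 89.3% and 82.9% of *Mmp14* UMIs.

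**Figure D1:**
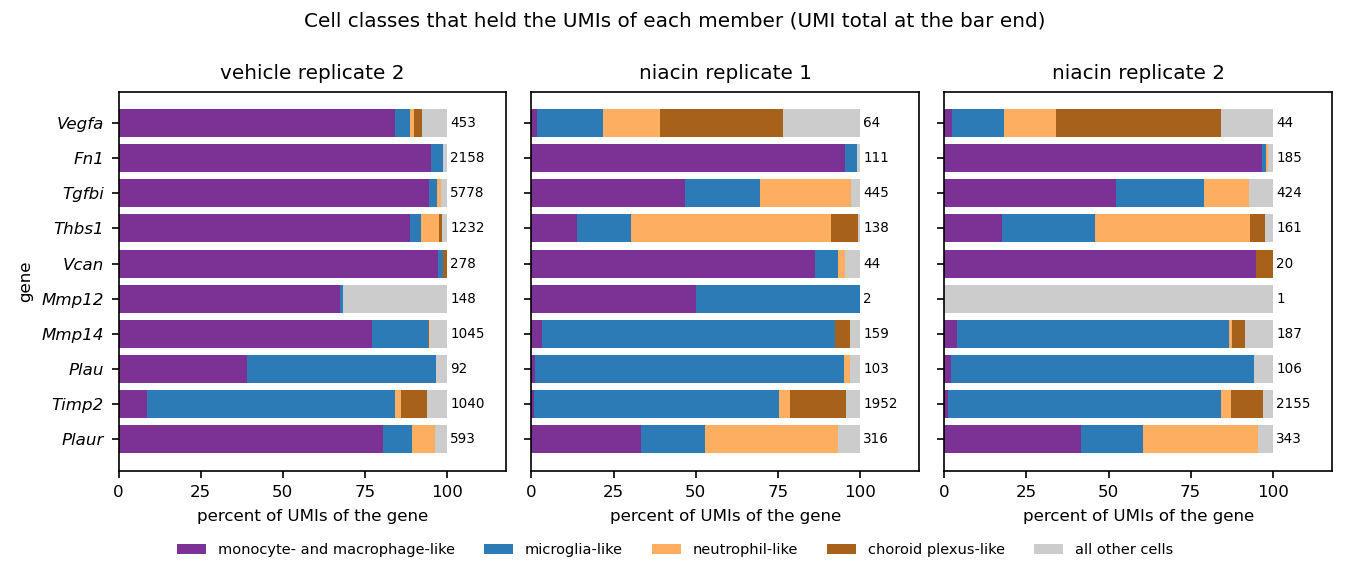
Percent of the UMIs of each member (horizontal axis) held by each cell class, 1 panel per library, with the UMI total of the gene at the end of each bar. *Fn1* and *Vcan* came mostly from monocyte/macrophage-like cells in every library, while *Vegfa*, *Thbs1* and *Mmp14* came mostly from those cells in the vehicle library and from other classes in both niacin libraries.

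Levels are given as CPM, the UMIs of a gene scaled to the same total of UMIs in each class and library, with exact Poisson 95% intervals where 1 library is read alone; these cover counting error only. *Fn1* (chr1:71585520-71653200, minus strand, GRCm38) reached 818 CPM (783 to 854) in monocyte/macrophage-like cells of the vehicle library, 146 (120 to 177) in niacin replicate 1 and 223 (191 to 258) in niacin replicate 2. In the niacin libraries 1 cell held 40 of 106 and 80 of 179 of these UMIs, and without it the levels were 91.7 and 127 CPM, below the intervals. Microglia-like cells had 33.1, 0.983 and 0.444 CPM, and neutrophil-like cells 0, 0 and 2.12, or 1 UMI in all. In each library monocyte/macrophage-like cells thus lay above both other classes. T cell-like cells, which should lack the gene, had 9.98, 0 and 2.41 CPM, below the microglia-like cells of the vehicle library and niacin replicate 1 and above those of niacin replicate 2.

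*Tgfbi* (chr13:56609523-56639562, plus strand) had 2177 CPM in vehicle monocyte/macrophage-like cells, 287 in niacin replicate 1 and 276 in niacin replicate 2. Neutrophil-like cells came next with 340, 276 and 123 CPM, and microglia-like cells had 57.6, 25.1 and 25.1. In niacin replicate 1 the intervals of monocyte/macrophage-like (250 to 329) and neutrophil-like cells (229 to 329) overlapped. In the niacin libraries 1 monocyte/macrophage-like cell held 68 of 208 and 42 of 222 *Tgfbi* UMIs. Without it the levels were 203 and 231 CPM, in niacin replicate 1 below both intervals. *Vcan* (chr13:89655312-89742509, minus strand) had 107, 52.5 and 23.7 CPM in monocyte/macrophage-like cells and at most 2.24 CPM in any library of neutrophil- or microglia-like cells. Of its 38 UMIs in niacin replicate 1, 37 lay in 1 cell, so that the class level there is the level of that cell.

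*Thbs1* (chr2:118111876-118127133, plus strand) had 435 CPM in monocyte/macrophage-like cells and 350 in neutrophil-like cells of the vehicle library. In the niacin libraries the order of those classes was the reverse, with 26.3 and 34.9 CPM in monocyte/macrophage-like and 188 and 161 CPM in neutrophil-like cells. In niacin replicate 1, 13 of the 19 *Thbs1* UMIs of monocyte/macrophage-like cells lay in 1 cell, without which the level was 8.68 CPM. *Vegfa* (chr17:46016993-46032369, minus strand) had 152 CPM in monocyte/macrophage-like cells of the vehicle library, and 1 UMI in each niacin library (1.38 and 1.25 CPM). Choroid plexus-like cells, the epithelium that secretes cerebrospinal fluid, had 45.8, 22.7 and 26.3 CPM of *Vegfa*, while neutrophil-like cells had 26.1, 24.7 and 14.8 CPM on 5 to 11 UMIs, with intervals that overlapped those of the choroid plexus-like cells. The few basophil- or mast cell-like cells of the niacin libraries had 71.3 and 16.8 CPM on 8 and 2 UMIs.

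The proteases had unlike distributions over the classes. *Mmp14* (chr14:54431612-54445364, plus strand) had 320 CPM in monocyte/macrophage-like cells of the vehicle library against 78.0 in microglia-like cells, but 6.91 and 8.72 against 34.9 and 34.4 CPM in the niacin libraries. *Mmp12* (chr9:7344381-7369499, plus strand) had 39.8 CPM (100 UMIs) in vehicle monocyte/macrophage-like cells, of which 29 UMIs lay in 1 cell and 50% in 3 cells, and 1 and 0 UMIs in the niacin libraries. A further 37 of its 148 vehicle UMIs lay in cells that carried markers of more than 1 lineage. *Plau* (chr14:20836660-20843385, plus strand) was low in all classes and most even in microglia-like cells, with 23.1, 23.8 and 21.8 CPM, against 14.3, 1.38 and 2.49 in monocyte/macrophage-like cells.

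*Timp2* (chr11:118301069-118355740, minus strand) was high outside the monocyte lineage, with 342, 358 and 399 CPM in microglia-like and 324, 318 and 251 in choroid plexus-like cells. It had 88.8, 143 and 140 CPM in neutrophil-like and 36.2, 19.3 and 27.4 in monocyte/macrophage-like cells. *Plaur* (chr7:24462484-24475968, plus strand) was highest in neutrophil-like cells, with 214, 287 and 255 CPM, followed by monocyte/macrophage-like cells with 190, 145 and 178. Microglia-like cells had 23.1, 15.2 and 14.2 CPM of *Plaur*, and choroid plexus-like cells 1 UMI in all. The vehicle neutrophil-like cells were shallow, with a median of 2237.5 UMIs against 5181.5 and 7547.

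**Figure D2:**
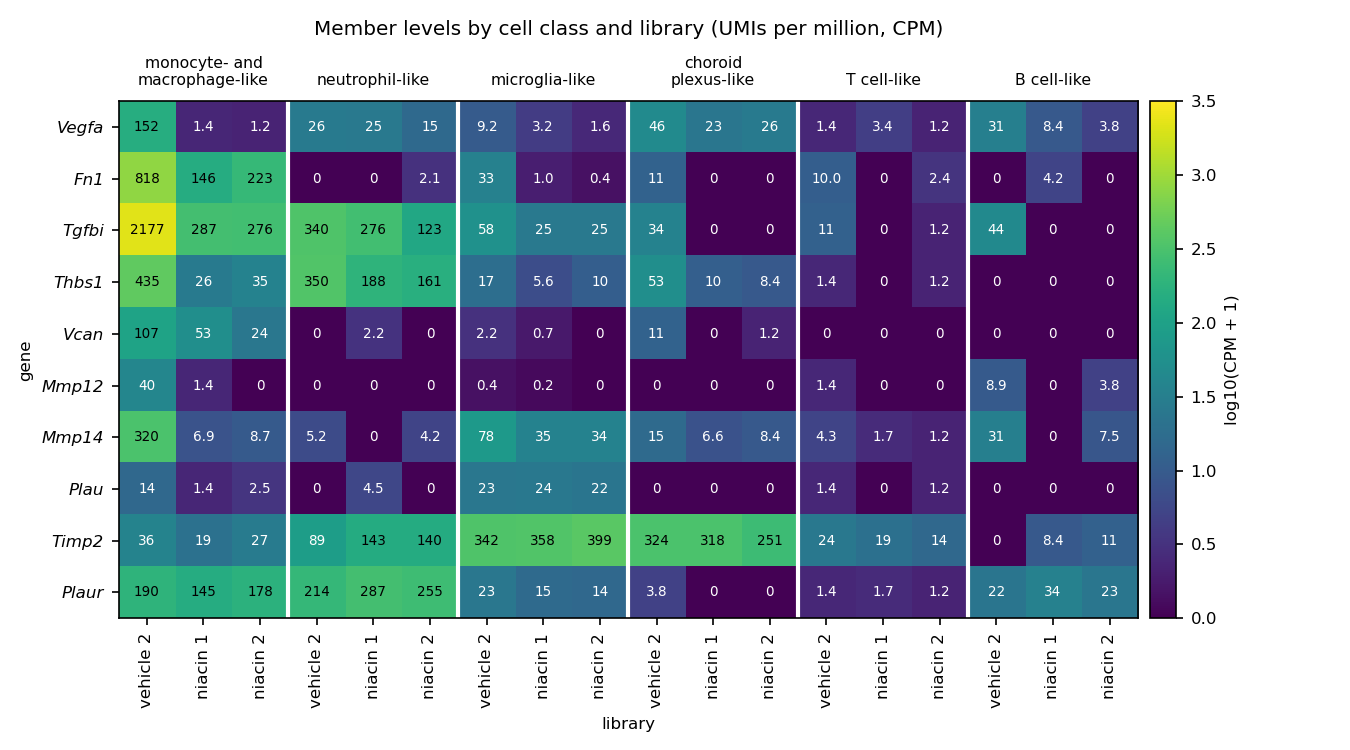
Level of each member (rows) in 6 cell classes of the vehicle and both niacin libraries (columns), printed in CPM and colored by log10(CPM + 1). The left block shows the monocyte/macrophage-like cells, where *Fn1* and *Vcan* stand above every other class in each library, and *Timp2* is highest in the microglia-like and choroid plexus-like blocks.

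UMIs were summed per class and library and tested in edgeR by quasi-likelihood, the library being a block, over all genes that passed a filter on low counts. In monocyte/macrophage-like against microglia-like cells, 5 of the 10 members were called higher (22.8% of 10318 genes tested were called higher), 1 lower (21.5% of genes), 2 not called, and *Vegfa* and *Mmp12* did not pass the filter. *Fn1* was higher by 6.38 on the log2 scale (SE 0.69, edgeR adjusted p = 0.000828), *Vcan* by 6.34 (SE 0.41), *Tgfbi* by 4.33 (SE 0.45), *Plaur* by 3.56 (SE 0.20) and *Thbs1* by 3.31 (SE 0.63, edgeR adjusted p = 0.00658). *Timp2* was lower, at -3.45 (SE 0.27, edgeR adjusted p = 0.000277). All 6 differences had the same direction in all 3 libraries, and *Vcan* passed the filter through monocyte/macrophage-like cells alone. *Plau* differed by -1.45 (SE 0.57, edgeR adjusted p = 0.0812), and by -3.31 without the vehicle library, where it was called. *Mmp14* differed by 0.18 (SE 0.91, edgeR adjusted p = 0.888), and without the vehicle library by -1.94, where it was called lower. *Vegfa* passed the filter where either niacin library was left out, at 3.65 without niacin replicate 1, where it was called, and 3.21 without niacin replicate 2. Both differences come from the vehicle library. In the niacin libraries monocyte/macrophage-like cells had 1.38 and 1.25 CPM, on 1 UMI each, against 3.19 and 1.55 CPM in microglia-like cells.

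Against neutrophil-like cells the order of several members was the reverse. In neutrophil-like against monocyte/macrophage-like cells 7 members passed the filter, with 3 called higher (16.5% of 6124 genes) and 2 lower (17.6%). Either way 34.1% of genes were called. *Timp2* was higher by 2.88 (SE 0.45), *Thbs1* by 2.22 (SE 0.71, edgeR adjusted p = 0.0375) and *Plaur* by 1.30 (SE 0.35, edgeR adjusted p = 0.0178). *Thbs1* differed by 1.65 without niacin replicate 2 and *Plaur* by 0.96 and 1.14 without niacin replicate 1 and 2, and neither was called there. *Fn1* and *Vcan* were lower, with 1 UMI each in all 169 neutrophil-like cells, so that they passed the filter through the other class alone and the fitted size depends on the prior count. *Tgfbi* differed by -0.54 (SE 0.58) and, without niacin replicate 1, by -1.34, where it was called lower. In choroid plexus-like against monocyte/macrophage-like cells *Timp2* was higher by 3.91 (SE 0.36, edgeR adjusted p = 8.03e-06; 31.4% of 8010 genes were called higher and 62.7% either way). *Fn1*, *Tgfbi*, *Plaur*, *Vcan* and *Thbs1* were called lower (31.3% of genes), *Thbs1* by -1.81 (SE 0.45) and the other 4 with at most 9 UMIs each in the choroid plexus-like cells, of which *Fn1*, *Vcan* and *Plaur* passed the filter through the other class alone. *Vegfa* differed by 1.08 (SE 0.89, edgeR adjusted p = 0.31), and by 4.68 without the vehicle library, where it was called higher. Of the 10 members, 3 in this comparison and 3 in that with neutrophil-like cells did not pass the filter.

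**Figure D3:**
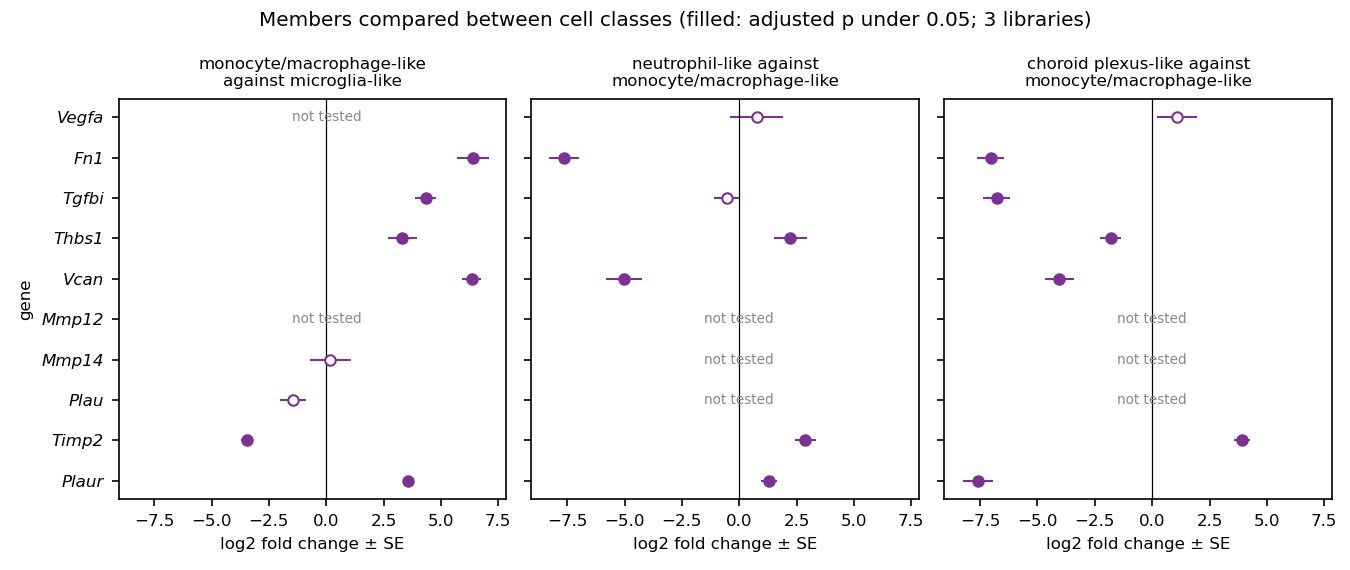
Log2 fold change (horizontal axis, bars are SE) of each member in 3 comparisons between cell classes over 3 libraries; filled points passed an adjusted p under 0.05 and members under the filter on low counts are marked. *Fn1* and *Vcan* lie far to the monocyte and macrophage side in all panels, and *Timp2* lies on the other side in all panels.

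Within the monocyte/macrophage-like class of the vehicle library the members were unevenly spread over subclasses. The class was divided by marker UMIs into Arg1-positive cells (at least 2 *Arg1* UMIs; 56 cells), nonclassical cells (*Ear2*, *Treml4*, *Eno3*, *Cd300e*; 28), dendritic cells (*Cd209a*, *Flt3*, *Clec10a*, *Ccl17*; 49) and the rest, called classical (190). *Arg1* encodes arginase 1, an enzyme typical of tumor macrophages. Of the 56, 5 had 2 *Arg1* UMIs and 51 had 3 or more, and a further 18 vehicle cells of the class had 1. *Vegfa* had 321 CPM in Arg1-positive, 130 in classical, 45.7 in dendritic and 27.8 in nonclassical cells. *Fn1* had 1567, 681, 553 and 156 CPM in the same order, *Tgfbi* 3162, 2406, 949 and 789, *Thbs1* 630, 523, 132 and 62.6, and *Mmp14* 476, 348, 127 and 136. These 5 members were thus highest in Arg1-positive cells and next highest in classical cells. *Mmp12* had 125 CPM in Arg1-positive and 45.2 in nonclassical cells against 8.22 in classical and 0 in dendritic cells. *Plau* was also highest in Arg1-positive cells (26.1, 14.0, 0 and 10.4 CPM) and *Timp2* in classical cells (40.7, 49.3, 10.1 and 6.95 CPM). *Vcan* (117, 126, 38.1 and 104 CPM) and *Plaur* (226, 160, 238 and 170 CPM) varied less. With 1 vehicle library these are values without a test, and Arg1-positive cells were also the deepest, with a median of 11924.5 UMIs against 2712 in classical cells.

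**Figure D4:**
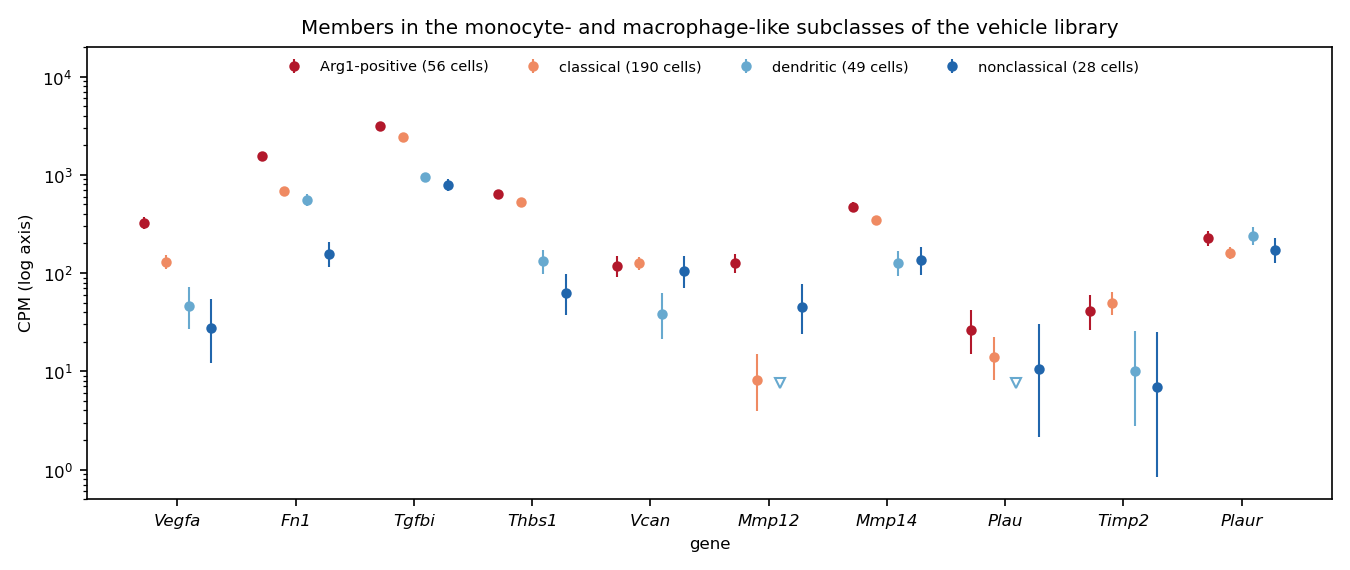
Level of each member in CPM (log axis) in the 4 subclasses of monocyte/macrophage-like cells of the vehicle library, with exact Poisson 95% intervals; open triangles mark the limit of 3 UMIs where none was counted. Arg1-positive cells are highest for *Vegfa*, *Fn1*, *Tgfbi*, *Thbs1*, *Mmp12*, *Mmp14* and *Plau*, and not for *Timp2*, *Vcan* and *Plaur*.

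To compare cells at 1 depth, each was thinned to 2000 UMIs and shallower cells were left out. Of 242 vehicle monocyte/macrophage-like cells (81 left out), 80.2% had a *Tgfbi* UMI (exact binomial 95% interval 74.6 to 85.0), 45.5% an *Fn1* UMI, 37.2% *Mmp14*, 24.8% *Thbs1*, 22.7% *Plaur*, 16.5% *Vegfa* and 12.8% *Vcan*. Without thinning the shares were taken at unequal depth and were 83.9% for *Tgfbi* and 52.0% for *Fn1*. In T cell-like cells of any library at most 3.19% had a UMI of any 1 member after thinning, at a median depth of 5510 in the vehicle library before thinning against 6030 in monocyte/macrophage-like cells. The share of monocyte/macrophage-like cells with a *Plaur* UMI in the niacin libraries was 23.5% of 68 cells and 30.3% of 76 cells, with intervals that hold the vehicle value. Their *Tgfbi* shares were 22.1% (12.9 to 33.8) and 31.6% (21.4 to 43.3), and *Fn1* 7.35% and 13.2%. Members also occurred in the same cells. In 45 of 50 thinned Arg1-positive vehicle cells at least 3 of the 10 members were detected, with a median of 4, against 51.2% of 125 classical, 18.6% of 43 dendritic and 16.7% of 24 nonclassical cells. In microglia-like cells this share was 4.73% in the vehicle library and 0.464% and 0.623% in the niacin libraries, and no T cell-like cell had 3 members. Neutrophil-like cells had 5.88%, 17.5% and 11.6%, and monocyte/macrophage-like cells of the niacin libraries 4.41% and 6.58%.

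The effect of niacin on these genes was compared between 1 vehicle and 2 niacin libraries. The only replicate spread here is that between the niacin libraries, with 1 residual degree of freedom, and the vehicle library is assumed to vary like them. edgeR moderates the spread of each gene toward a trend over all genes tested. The SEs and p-values of these comparisons therefore rest largely on the spread of other genes. The subclass make-up of the monocyte/macrophage-like class differed strongly between the groups. Arg1-positive and classical cells were 56 and 190 of 323 vehicle cells, 0 and 9 of 84 cells in niacin replicate 1 and 2 and 23 of 89 in niacin replicate 2, while nonclassical cells were 28, 68 and 50. With all barcodes kept, Arg1-positive cells numbered 58, 14 and 12, classical cells 243, 126 and 147 and nonclassical cells 33, 77 and 63. Over the whole class edgeR called 7 of the 10 members lower in the niacin libraries (10.9% of 8111 genes were called lower) and none higher (6.85% of genes). Since the vehicle group is 1 library, a gene passed the filter on low counts where that library alone was high. *Vegfa*, *Mmp12*, *Mmp14* and *Plau* passed in that way and could only differ downward, so that their calls are no support and their counts are given as values. The other 6 members reached the filter in both groups. On the log2 scale 4 of these were called lower, *Tgfbi* at -2.97 (SE 0.16, edgeR adjusted p = 3.78e-05), *Thbs1* at -3.84 (SE 0.26), *Fn1* at -2.16 (SE 0.26) and *Vcan* at -1.54 (SE 0.34, edgeR adjusted p = 0.0141), and *Timp2* (-0.64) and *Plaur* (-0.25) were not called. *Mmp14* had 805 UMIs in the vehicle library against 5 and 7 in the niacin libraries, and *Plau* 36 against 1 and 2. With 381 *Vegfa* UMIs against 1 in each niacin library, the ratio of vehicle to niacin was 110 and 122, which on the log2 scale of niacin over vehicle is -6.78 (counting interval -9.61 to -3.95) and -6.93 (-9.76 to -4.10), and *Mmp12* was at least 10.7-fold higher in vehicle cells than in niacin replicate 2, where it was at 0. DESeq2 called *Tgfbi*, *Thbs1* and *Fn1* of the 6 members, without *Vcan*.

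Nonclassical cells were the only subclass with at least 10 cells in every library. In them alone 5 members reached the filter in both groups, of which *Tgfbi* was called lower (3.09% of 6571 genes) and none higher (1.64% of genes). *Tgfbi* had 789 CPM in the vehicle library and 365 and 220 CPM in the niacin libraries (-1.39, SE 0.25). *Mmp14* passed the filter through the vehicle library alone and is given as counts, 39 UMIs (136 CPM) against 1 in each niacin library (1.90 and 2.09 CPM). *Fn1* had 156, 83.7 and 245 CPM, so that the niacin libraries lay on both sides of the vehicle library (log2 difference 0.09, SE 0.50). Of the 179 *Fn1* UMIs of all monocyte/macrophage-like cells in niacin replicate 2, 80 lay in 1 cell, which was nonclassical. The value of 245 CPM rests in large part on it, and the level of nonclassical cells without it was not computed. *Thbs1* (62.6, 36.1 and 41.8 CPM; -0.65, SE 0.42), *Plaur* (170, 177 and 245 CPM; 0.34, SE 0.28) and *Vcan* (104, 70.4 and 2.09 CPM; -1.44, SE 0.83) were not called. *Vegfa* (8, 1 and 0 UMIs), *Mmp12* (13, 0 and 0), *Plau* (3, 1 and 0) and *Timp2* (2, 5 and 6) were under the filter. The share of subclasses moved with the result over the whole class, and its part in the result was not tested. In niacin replicate 1 a single cell held 37 of the 38 *Vcan*, 13 of the 19 *Thbs1* and 68 of the 208 *Tgfbi* UMIs of the whole class. The levels of *Vcan* and *Thbs1* there rest mostly on that cell, and nonclassical levels without it were not computed. That *Thbs1* was not called does not show equal levels.

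In microglia-like cells the levels were low and 5 of the 10 members were lower in the niacin libraries (13.8% of 11385 genes were called lower), with none called higher (13% of genes; 26.8% either way). *Fn1* is counted among the 5 but passed the filter through the vehicle library alone, with 76 UMIs against 4 and 2, so that its call is no support. *Vegfa* had 21 UMIs against 13 and 7 (9.16, 3.19 and 1.55 CPM; -1.87, SE 0.55). *Tgfbi* differed by -1.12 (SE 0.17), *Mmp14* by -1.09 (SE 0.16; 78.0, 34.9 and 34.4 CPM) and *Thbs1* by -1.03 (SE 0.33). *Timp2* (0.23), *Plau* (0.06) and *Plaur* (-0.57) were not called, and *Vcan* and *Mmp12* were under the filter. Monocyte and macrophage marker genes moved with these members. Of the 17 markers, 15 were detected in vehicle microglia-like cells and 14 in those of each niacin library, with summed levels of 621, 386 and 395 CPM, *Ear2* and *Treml4* at 0 in the vehicle and *Cd209a* and *Ccl17* at 0 in both niacin libraries, and their part in the result was not tested. Microglia-like cells without any such UMI numbered 105, 299 and 391. They were shallow, with medians of 1606, 2504 and 1623 UMIs against 6663, 6081 and 6317.5 in the other microglia-like cells. In these cells *Mmp14* had 92.4, 34.6 and 37.8 CPM and *Tgfbi* 72.3, 26.7 and 20.4 CPM. *Thbs1* had 16.1, 7.91 and 16.5 CPM, so niacin replicate 2 was not below the vehicle library. *Vegfa* had 0, 6 and 1 UMIs and *Fn1* 2, 2 and 1. Here edgeR called 0 of the 6 members that passed the filter (3 at an unadjusted p under 0.05) and 0 of 9175 genes (1190 at an unadjusted p under 0.05). The vehicle sum was 248888 UMIs in these cells against 2293521 in all microglia-like cells. The lack of calls therefore does not show that the differences were absent. DESeq2 on all microglia-like cells called *Fn1* alone of the members. In a test of the difference itself, added after seeing the data, the niacin effect was lower in monocyte/macrophage-like than in microglia-like cells for 4 of the 8 members that passed the filter (6.16% of genes), *Mmp14*, *Plau*, *Thbs1* and *Tgfbi*, and higher for 1 (4.62% of genes), *Fn1*, and several of these calls were lost in other settings.

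**Figure D5:**
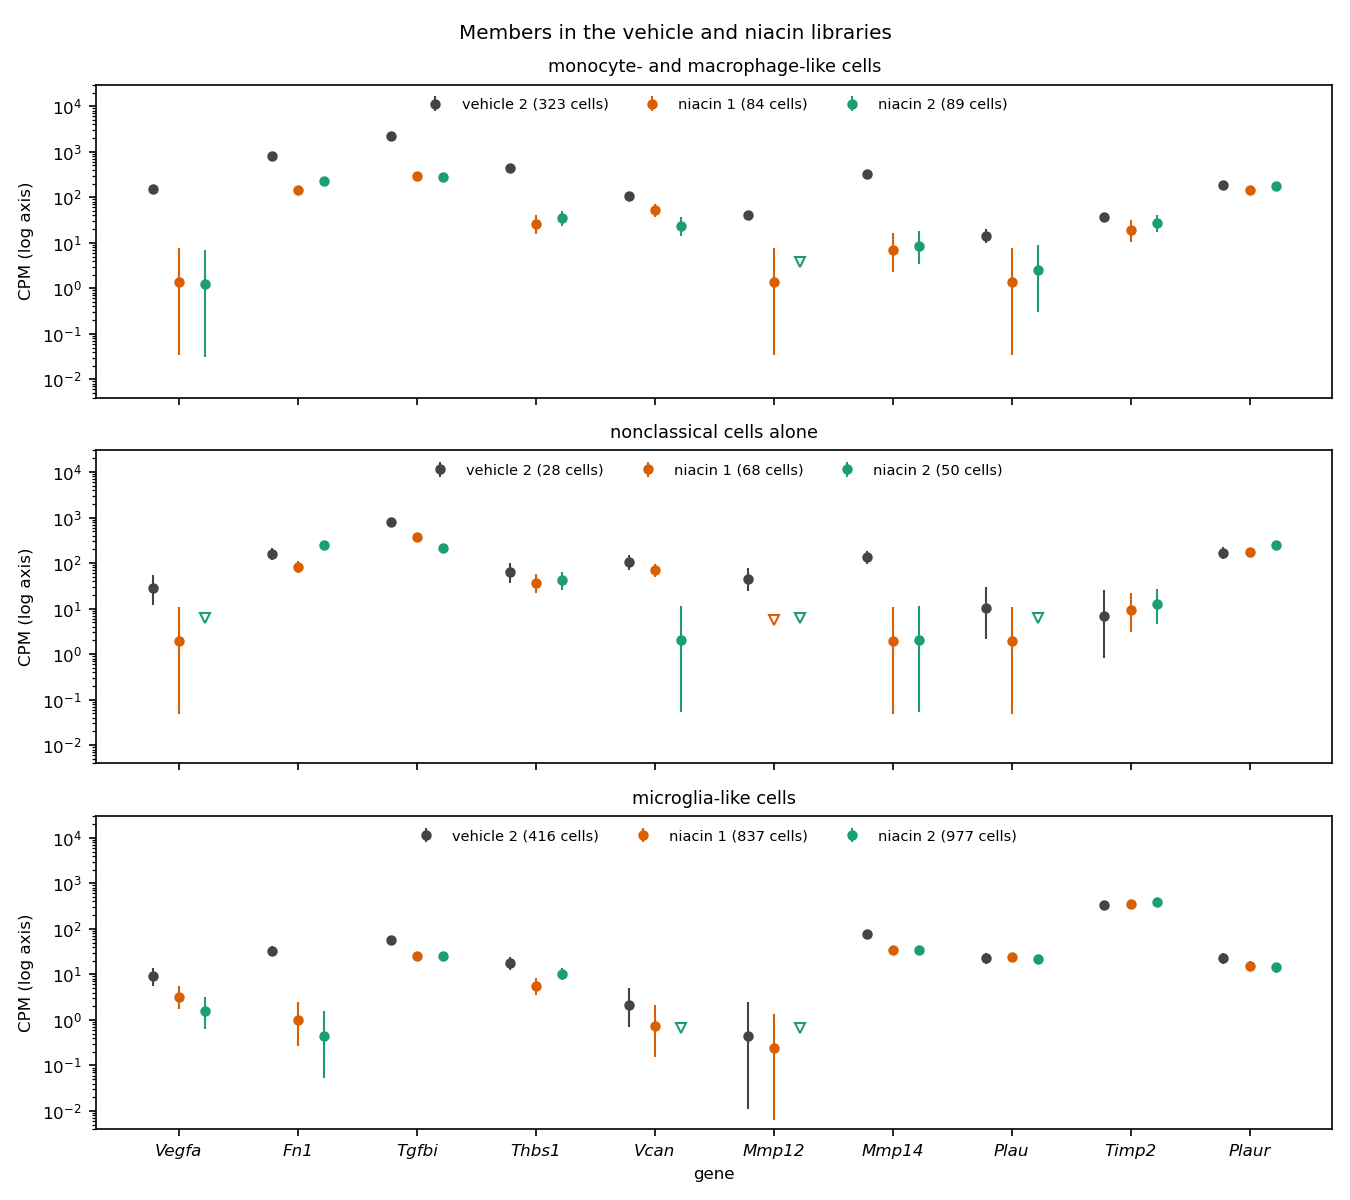
Level of each member in CPM (log axis) in the vehicle and niacin libraries, for all monocyte/macrophage-like cells, nonclassical cells alone and microglia-like cells; bars are exact Poisson 95% intervals, and open triangles mark the limit of 3 UMIs where none was counted. In the upper panel every vehicle point is the highest. In nonclassical cells the niacin points of *Fn1* lie on both sides of the vehicle point, that of niacin replicate 2 resting in large part on 1 cell. In microglia-like cells *Timp2* and *Plau* were not called.

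The other genes of the same pathways were read in 6 lists, none of which holds a member. In monocyte/macrophage-like against microglia-like cells, 10 of 13 genes of plasminogen activation and coagulation passed the filter, 6 were higher and 2 lower, beside 22.8% and 21.5% of all genes tested. *Serpinb2*, the plasminogen activator inhibitor PAI-2, had 51.0 ± 37.4 CPM (SD, n = 3) and *Thbd*, thrombomodulin, 44.7 ± 26.6, with no UMI of either in microglia-like cells, while *Serpine2*, a protease inhibitor, was at 351 ± 33.7 CPM in microglia-like cells (log2 difference -7.56). Of 22 matrix proteins 7 passed the filter, 6 were higher and *Sparc* was lower (-7.54). *Emilin2* was higher by 7.14 (252 ± 106 against 2.50 ± 2.78 CPM) and *Lgals3*, galectin 3, by 6.15. Of 21 metalloproteinases and inhibitors 10 passed the filter, and the 3 higher and 4 lower lay near these shares. The higher were led by *Mmp8* (4.85), itself a marker of neutrophils, and *Adam19* (3.84), and the lower by *Adamts1* (-9.21; 213 ± 17.2 CPM in microglia-like cells) and *Mmp2* (-2.53, and -2.16 and not called without niacin replicate 2). Of 19 angiogenic ligands and receptors 10 passed the filter, 2 were higher, *Flt1* (5.31), a receptor of VEGF, and *Hgf* (1.78, and 1.36 and not called without niacin replicate 1), and 5 lower, led by *Ang* (-3.36) and *Pdgfb* (-2.98). Of 13 matrix receptors 12 passed the filter, 8 were higher, led by the integrin *Itga4* (6.34) and the hyaluronan receptor *Cd44* (5.60), and 3 lower, led by *Itgb5* (-2.95) and *Itga9* (-2.46). *Itga9* was not called without niacin replicate 1 (-1.98), without niacin replicate 2 (-2.05) or without the block for library (-2.02). The median log2 difference of the lists was 5.42 for plasminogen activation, 4.19 for matrix proteins, 1.38 for matrix receptors, 1.01 for hypoxia genes, -0.49 for metalloproteinases and -0.85 for angiogenic ligands, against -0.07 over all genes tested. *Serpinb2*, *Thbd*, *Mmp8*, *Adam19*, *Serpine2* and *Adamts1* passed the filter through 1 class alone and could differ only toward it. Such genes were not set apart in the lists. The counts and medians are therefore given as values and are no support.

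The hypoxia list names genes known to rise at low oxygen, as *Vegfa* does. In monocyte/macrophage-like cells 12 of its 13 genes passed the filter and 11, *Slc2a1*, *Ldha*, *Bnip3* and *Hif1a* among them, were lower in the niacin libraries and none higher, beside 10.9% of all genes called lower, with a median of -1.86 against -0.0041 over all genes. A gene that passed through the vehicle library alone could only differ downward. Such genes were not set apart in the 11, so this count is no support. Arg1-positive and classical cells were 56 and 190 of the 323 vehicle cells of the class and 0 and 9 of 84 and 2 and 23 of 89 niacin cells, and the part of these shares in the result was not tested. In microglia-like cells 2 were lower, *Hif1a* and *Pgk1*, and *Hk2* was higher. Between the classes 11 of the list passed the filter, 5 were higher in monocyte/macrophage-like cells, led by *Ndrg1* (5.97) and the glycolytic enzyme *Pgk1* (2.59; 362 ± 258 against 64.4 ± 24.2 CPM), and *Pdk1* was lower (-1.21, not called without either niacin library, at -0.78 and -1.22). *Ndrg1* passed the filter through monocyte/macrophage-like cells alone, so its direction is no support. In the same contrast between niacin and vehicle monocyte/macrophage-like cells, 6 of 11 metalloproteinase genes tested were lower and none higher, and for matrix proteins 2 of 7 (*Spp1* and *Ecm1*) were lower and none higher, for angiogenic genes 3 and 1 (*Pdgfb*) of 9, for matrix receptors 5 and 2 of 12, and for plasminogen activation 2 and 2 of 8. Genes that passed the filter through 1 group alone are among these counts and medians, which are therefore given as values and are no support. The lists were tested in no way other than gene by gene.

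Genes with the pattern most like each member were sought over 18 points, 6 classes in 3 libraries, as the Pearson r of log2(CPM + 10) among genes that reached 50 CPM in a class, a description in which points share libraries and depth. *Fn1* (0.97) and *Vcan* (0.96) were both close to *Msr1*, a scavenger receptor, and *Flt1*. *Tgfbi* was nearest *Cers6* (0.98), *Emilin2* (0.94) and *Gpr141* (0.93), *Thbs1* to *Rab7* (0.96), *Tarm1* and *C3*, and *Plaur* to *Pirb* (0.96), *Cybb* and *Cyp4f18*. *Vegfa* was nearest *Bnip3* (0.77), *Gas7* and *Arg1* (0.71), *Mmp14* to *Cxcl16* (0.87), *Rufy3* and *Nrp2*, and *Timp2* to *Cd63* (0.93), *Rtn3* and *Tcn2*. *Mmp12* and *Plau* reached 50 CPM in no class mean.

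Promoter windows of RefSeq (GRCm38.p6; 250 bases before to 50 after a start) were at hand for 7 members in 9 windows, those of *Fn1*, *Thbs1* and *Plau* being left out. They were searched on both strands for TGANTCA, the site of AP-1 factors (in 7.81% of 32851 windows of all genes), ACGTG, the core of hypoxia response elements (19.6%), and GAGGAA, a core of ETS factors (28.3%). No motif was matched in every member that had a window and was lower, with *Vegfa*, in monocyte/macrophage-like cells of the niacin libraries. AP-1 letters were in the windows of *Plaur* and of the second start of *Mmp12*, hypoxia letters in those of *Mmp14* and of the second start of *Vegfa*, ETS letters in *Vegfa*, *Mmp12* and *Plaur*, and *Tgfbi*, *Vcan* and *Timp2* had none of the 3. The AP-1 and hypoxia matches are shown with the bases around them, 5′ to 3′ on the strand of the gene, with the matched letters or their reverse complement in capitals.
Plaur, 69 bases before the start, chr7:24462403-24462432, plus strand: acccctggagcTGACTCActctttagcaaa
Mmp12, 44 bases before the second start, chr9:7347319-7347348, plus strand: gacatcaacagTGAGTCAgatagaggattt
Mmp14, 48 bases before the start, chr14:54431538-54431567, plus strand: gagctgaaacacCACGTccccaccgaaaaa
Vegfa, 211 bases before the second start, chr17:46025357-46025386, minus strand: ggagtgcgtgccCACGTcagagagcaacat
A match is a description of letters and not of a site in use, and each lies before the start of its own window. The matches at the second starts of *Mmp12* and *Vegfa* lie within the bounds of the gene, after its first start.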

How the data were processed

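The authors made Chromium 3′ v3.1 libraries and ran Cell Ranger 3.1 with STAR on mm10. The deposited counts are whole numbers of UMIs for every gene in every cell barcode, without normalization, and no columns of other samples were used (0 were left out). The depth per library was 8301228 to 10359526 UMIs. Barcodes under 200 genes or above 20% mitochondrial UMIs were dropped, and of shared barcodes only a copy with 3 times the UMIs of every other was kept. A cell took the lineage whose marker sum was at least 3 UMIs from 2 genes and 2 times the next of 14 lists; cells with markers of 2 lineages were set apart as mixed. No doublet caller was run, and leaving out the 5% of cells with the most UMIs was an alternative.

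Sums per class and library were tested with edgeR 4.0.16 in R 4.3.3 (glmQLFit, TMM, filterByExpr, Benjamini-Hochberg adjustment over all genes tested, threshold 0.05; library as a block between classes). DESeq2 1.42.0 was an alternative. Libraries are pools, so p-values measure the spread between pools, which edgeR moderates for each gene toward a trend over all genes tested. On simulated counts, 4-fold and 2-fold changes were recovered at 96% and 45% for monocyte/macrophage-like against microglia-like cells (10318 genes), 86% and 16% for neutrophil-like (6124), 91% and 23% for choroid plexus-like (8010), 97% and 76% for niacin in microglia-like (11385), 91% and 25% for niacin in monocyte/macrophage-like cells (8111) and 76% and 19% for the difference of niacin effects (10318). The changes were planted only in genes above a minimum mean count, with the same dispersion for every gene and library. The recovered shares therefore do not describe members with few UMIs. False calls were 5.69% of the calls for niacin in monocyte/macrophage-like cells, the highest share among these comparisons. CPM have exact Poisson and shares of cells exact binomial (Clopper-Pearson) 95% intervals, and a count of 0 allows 3 counts. Beside the members, the text names the 2 largest called differences in each direction of each pathway list and the 3 genes most like each member; other genes were named after their values were seen. One gene that this rule names is not reported here. Coordinates are of the GENCODE annotation of GRCm38. Members and lists were chosen with earlier results of these data known.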

Additional observations from a re-analysis of the deposited data

Results flagged for a closer look

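The difference between niacin and vehicle libraries was compared between monocyte/macrophage-like and microglia-like cells in 1 edgeR fit with an interaction term, a test added after seeing the data. Of the 10 members 8 passed the filter and 5 differed (10.8% of 10318 genes were called). Relative to microglia-like cells, the niacin libraries were lower in monocyte/macrophage-like cells for *Mmp14* by a further -4.30 (SE 0.39), *Plau* -2.94 (SE 0.83), *Thbs1* -2.82 (SE 0.39) and *Tgfbi* -1.88 (SE 0.26) on the log2 scale. *Fn1* differed by 3.20 (SE 0.48), that is, the larger log2 difference was in microglia-like cells, where it rests on 76 vehicle UMIs against 4 and 2. With microglia-like cells that had no monocyte or macrophage marker UMI, *Fn1* was at 0.13 and *Plau* at -3.22, neither called. With cells thinned to 2000 UMIs *Fn1* was at 1.956 (edgeR adjusted p = 0.209) and *Plau* at -1.32 (0.733), neither called. *Plau* was also not called with shared barcodes removed (-1.956), without the 5% of cells with the most UMIs (-2.22) or with nonclassical cells alone (-3.27). With nonclassical cells alone *Tgfbi* was at -0.22 and *Thbs1* at 0.51, both not called, and *Mmp14* at -4.84 rests there on 39 vehicle UMIs against 1 and 1. *Fn1* was called there at 5.54 (SE 0.56), which rests on the same 76 vehicle UMIs against 4 and 2 of microglia-like cells. *Plau* rests on 36 vehicle UMIs against 1 and 2 in monocyte/macrophage-like cells.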

How the results depend on the processing

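Of the counts of members called, 97 of the recomputed values lay within 1.5 times the reported one and 29 did not. In monocyte/macrophage-like against microglia-like cells 3 members were higher without the 5% of cells with the most UMIs or with cells thinned to 2000 UMIs, and 2 lower (*Timp2* and *Plau*) with microglia-like cells free of monocyte or macrophage marker UMIs, nonclassical cells alone, no filter or DESeq2. *Mmp14* was there at -0.026, -0.59 and -0.52 (marker-free microglia-like, nonclassical, DESeq2), and leaving out each library gave -1.94 to 0.87 for *Mmp14* and 1 to 3 members lower. Neutrophil-like cells had 4 members lower with all barcodes or no filter, 1 lower with shared barcodes removed, without the top 5%, thinned or with nonclassical cells alone, and 1 and 0 higher with shared barcodes removed and thinned. *Tgfbi* was there at 0.58, 0.028 and 0.24 (shared barcodes removed, without the top 5%, thinned). Leaving out each library gave 1 to 3 members higher, -1.34 to 0.43 for *Tgfbi* and -0.39 to 0.019 for *Vegfa*. Choroid plexus-like cells had 3 members lower with shared barcodes removed, without the top 5%, thinned or with nonclassical cells alone, 8 with no filter, and 2 higher with nonclassical cells or DESeq2, and 1 to 2 when each library was left out. The niacin count in microglia-like cells was 3 with shared barcodes removed, 2 thinned, 0 in marker-free cells and 1 by DESeq2, and *Plau* was at -0.28, -0.0082 and -0.050 (shared barcodes removed, 5 marker UMIs, without the top 5%). In monocyte/macrophage-like cells it was 2 with nonclassical cells alone, where *Fn1* was at 0.092. *Plaur* was there at 0.39, 0.16, 0.12 and 0.34 (shared barcodes removed, without the top 5%, thinned, nonclassical) and *Timp2* at 1.01 with shared barcodes removed. The difference between classes in the niacin effect had 0 members higher with marker-free microglia-like cells or thinned cells, and was 0.74 for *Timp2* with shared barcodes removed and 0.55 with nonclassical cells, and 0.51 for *Thbs1* with nonclassical cells. The cause of these changes was not tested.

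Niacin calls over all genes numbered 264 by DESeq2 against 3056 by edgeR in microglia-like cells and 428 against 1438 in monocyte/macrophage-like cells, and with thinned cells 817 and 746. With all barcodes kept they were 2710 and 2234, and with shared barcodes removed 1649 and 659. In the difference between classes they were 1113, and 384, 236, 525, 266 and 715 with shared barcodes removed, thinned, marker-free, nonclassical and 5 marker UMIs. Without the replicate block for library, *Vegfa* was at -0.63 in neutrophil-like and -0.43 in choroid plexus-like cells, and *Thbs1* was not called in either, at 1.10 and -2.69. No paired analysis was possible between niacin and vehicle because the groups share 1 replicate number, and leaving out a niacin library leaves 1 against 1 without a test. Nonclassical against classical cells were not tested, since niacin replicate 1 had 9 classical cells.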
